A study of Arabidopsis thaliana with 24 samples.

Results

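The loci described here are the 254 loci that the authors' deposited table types as long noncoding RNA, out of 14888 loci it lists. They were taken by that locus type alone, in every mutant line. The table holds only loci that had an adjusted p-value of at most 0.05 in some line. Membership thus depends on measured values, and annotated loci that passed in no line are absent. All 254 matched a gene of the same locus identifier in the RefSeq annotation of Arabidopsis thaliana (assembly TAIR10.1), where each is annotated as a long noncoding RNA gene, among 3480 such genes. None carries a gene symbol there. Of 14 names of well-known noncoding RNAs searched for, among them IPS1, the phosphate-starvation target mimic, and the TAS genes, sources of trans-acting siRNAs, 8 could be matched to a locus by symbol and 0 were among the 254.

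Small RNA was sequenced from inflorescences, and the labels describe 24 libraries in 8 genotype groups of 3. Besides the wild type Col-0 WT there are lines with 1 mutation (rrp4-2, ski2-5, urt1-1 or heso1-4), a line that combines heso1-4/urt1-1, and lines with 3 mutations, namely rrp4-2/urt1-1/dcl2CRISPR and rrp4-2/urt1-1/heso1-4, the last of which is called the triple mutant below. No value per library was used here: the table gives, for each locus and line, the authors' mean normalised read count over libraries, the log2 fold change of the line against a reference, and its p-value and adjusted p-value. The table names 13 mutant lines and no reference, which is taken to be Col-0, so all lines share the same reference libraries. The lines urt1.1, ski2.5, rrp4, heso1urt1 and rrp4urt1heso1 were matched by name to the labelled genotypes. GKheso1 is an insertion line of HESO1 that no label equates with heso1-4, rrp4urt1dcl2.B9 and rrp4urt1dcl2het both carry the name of the dcl2CRISPR group, and no label names the lines ski2urt1dcl2.123, ski2urt1dcl2.107, ski2.2, urt1.2 and heso1.3. The design text writes the heso1 allele of the double mutant differently from its genotype label.

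RRP4 is a core subunit of the RNA exosome, the complex that degrades RNA from its 3′ end, and SKI2 is the helicase that feeds RNA to the cytosolic exosome. URT1 and HESO1 are terminal nucleotidyl transferases that add uridines to RNA 3′ ends, URT1 to messenger RNA and HESO1 to unmethylated small RNA and to RNA fragments. DCL2 is a Dicer-like nuclease that cuts double-stranded RNA into small interfering RNA. Long noncoding RNAs are transcripts with no evident protein product, and the annotation puts under this type transcripts of many origins. The table gives no read length, so small interfering RNA and fragments of longer RNA cannot be told apart at these loci.

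The table lists a locus in a line only where the adjusted p-value is at most 0.05, and it lists between 50.9% and 82.8% of the ranks up to the last one it holds, as recovered from the ratio of p-value to adjusted p-value. A locus that is not listed in a line was therefore not shown to be unchanged there. The 254 loci have 653 entries of 28194. Of the 254 loci, 106 are listed in 1 line, 123 in 2 to 4 lines and 25 in 5 or more, up to 12. In direction, 144 loci were higher in every line that lists them, 97 were lower in every such line and 13 were higher in some and lower in others. The loci measure 200 to 7116 bases with a median of 382.5 bases, and 62, 42, 59, 38 and 53 of them lie on chromosomes 1, 2, 3, 4 and 5. The authors' mean count ranges from 3.77 to 855138 with a median of 61.2, against 83.2 over all loci of the table, and 52 loci have a mean under 10.

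In every line named for rrp4, more of these loci were listed as higher than as lower. In the authors' deposited table, 72 of the 254 loci (28.3%) were higher in rrp4-2, against 14.7% of all 14888 loci, and 8 (3.15%) were lower, against 4.33%. All shares given here and below for the 254 loci and for all 14888 loci are of loci listed in some line. They are not shares of the loci tested or annotated. About 63565 loci were tested in rrp4-2, as recovered from the ratio of p-value to adjusted p-value. The comparison over all tested loci was not made. The median log2 fold change of the loci listed as higher in rrp4-2 was 1.66, and it was 1.01 over all loci listed as higher there. The standard errors of these loci and of all, recovered from the p-values, had medians of 0.39 and 0.242. A locus with a larger error is listed only where its change is large, and the part of this in the medians was not tested. In rrp4urt1dcl2.B9, 72 loci (28.3%) were higher, against 21.9% of all loci, and 16 (6.3%) were lower, against 5.18%. In rrp4urt1dcl2het, 110 loci (43.3%) were higher, against 41.2%, and 35 (13.8%) were lower, against 19.4%. The share of higher loci in rrp4urt1dcl2het is near the background, so it is no result about long noncoding loci. In rrp4-2/urt1-1/heso1-4, 90 loci (35.4%) were higher, against 28.2%, and 66 (26.0%) were lower, against 22.4%. Both median log2 fold changes in the triple mutant lie farther from 0 than those over all loci, 2.05 against 1.2 for higher and -1.2 against -0.76 for lower loci. The same limit applies there. The median standard errors were also larger than over all loci, 0.432 against 0.286 for higher and 0.22 against 0.198 for lower loci.

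The share of higher loci depends on those that overlap another annotated gene. Among the 122 loci that overlap none, 27 (22.1%) were higher in rrp4-2, still above the 14.7% of all loci. In rrp4urt1dcl2.B9, 20 of the 122 (16.4%) were higher, below the 21.9% of all loci, in rrp4urt1dcl2het 44 (36.1%), below 41.2%, and in the triple mutant 26 (21.3%), below 28.2%. The direction of the comparison with all loci thus turns in these 3 lines. Of the same 122 loci, 46 (37.7%) were lower in the triple mutant, above 22.4%, and 28 (23.0%) in ski2urt1dcl2.107, above 5.43%.

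The lines with a mutation in URT1, HESO1 or SKI2, singly or as heso1-4/urt1-1, list few of these loci. The authors' deposited table has 15 loci (5.91%) higher in urt1-1 against 1.46% of all loci, and 3 (1.18%) lower against 0.504%. In GKheso1 it has 12 (4.72%) higher against 0.658%, and 8 (3.15%) lower against 0.813%. In heso1-4/urt1-1 it has 14 (5.51%) higher against 1.59%, and 5 (1.97%) lower against 1.13%. In ski2-5 it has 9 (3.54%) higher against 1.18%, and 6 (2.36%) lower against 1.22%. The loci listed in nearly every line, described below, make up 4 of the 15 higher loci in urt1-1, 3 of 12 in GKheso1, 4 of 14 in heso1-4/urt1-1 and 3 of 9 in ski2-5. Among lines with no label, urt1.2 has 6 loci (2.36%) higher against 0.692% and 3 (1.18%) lower against 0.477%. The line ski2.2 has 7 (2.76%) higher against 2.16% and 2 (0.787%) lower against 0.672%. The line heso1.3 has 0 loci higher in the authors' DESeq2 comparison against 0.43% of all loci, and 5 (1.97%) lower against 0.49%, and entries above an adjusted p of 0.05 were not analysed here.

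The ski2urt1dcl2 lines differ from the rrp4 lines in the direction of their calls. In ski2urt1dcl2.107 the authors' deposited table has 38 loci (15.0%) lower against 5.43% of all loci, and 17 (6.69%) higher against 6.33%. In ski2urt1dcl2.123 it has 27 (10.6%) lower against 3.11%, and 7 (2.76%) higher against 3.67%. The table also holds 150 loci typed as antisense long noncoding RNA. Of those, 3 (2.0%) were lower in ski2urt1dcl2.107 and 113 (75.3%) were higher in rrp4-2/urt1-1/heso1-4, with 6 (4.0%) lower there. In rrp4-2, 55 (36.7%) of the antisense loci were higher, and in rrp4urt1dcl2.B9 72 (48.0%). Both shares lie above those of the long noncoding type, 28.3% in each of these lines. In rrp4urt1dcl2het the antisense share, 42.0%, lies just below the 43.3% of the long noncoding type. The excess of higher loci over all loci in rrp4-2 is thus not particular to the long noncoding type.

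**Figure D1:**
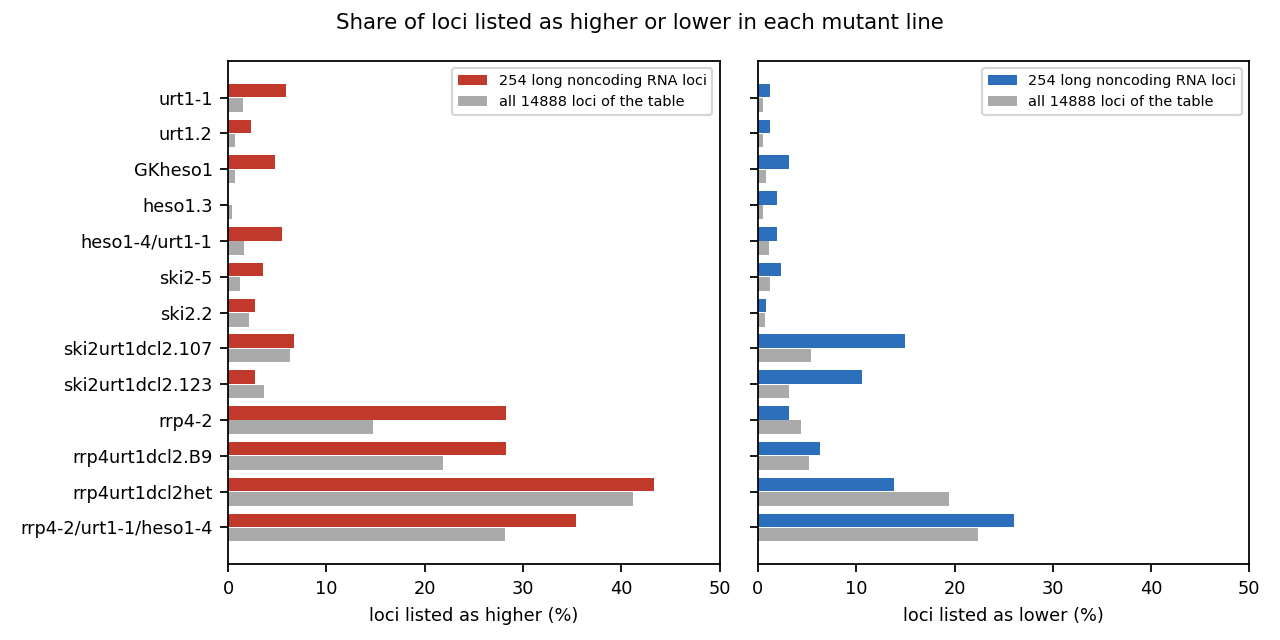
Share of loci listed as higher (left) or lower (right) at an adjusted p-value under 0.05 in each of 13 mutant lines, in percent, for the 254 long noncoding RNA loci (coloured bars) and all 14888 loci of the table (grey bars). Both sets hold only loci listed in some line. Among higher loci the bars part most in rrp4-2 (28.3% against 14.7%), and among lower loci in ski2urt1dcl2.107 (15.0% against 5.43%).

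The annotation places 132 of the 254 loci over at least 1 other gene. Here 11 loci overlap or match a small nuclear RNA (snRNA) gene, 6 overlap small nucleolar RNA (snoRNA) genes, and 5 overlap or match ribosomal RNA, transfer RNA or microRNA genes. A further 29 overlap a protein-coding gene, 23 overlap another RNA gene or a pseudogene, 61 overlap only other long noncoding genes, and 119 fall in none of these classes. Annotated genes and their matches were read from RefSeq after the values were known, and the classes were given no test.

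One group by annotation holds the RNA parts of the spliceosome. U1, U2, U4 and U5 snRNAs build the major spliceosome, which removes introns from messenger RNA, and U6atac belongs to the minor one. All 11 loci that overlap or match such a gene were higher in rrp4-2/urt1-1/heso1-4, with log2 fold changes from 1.1 to 3.45 in the authors' deposited table. AT1G06867, AT2G04435 and AT5G09065 are listed in that line alone, so they are among the 254 through that call. In rrp4-2 the table lists 7 of the 11, all higher, from 0.91 to 2.06. It lists 7 in rrp4urt1dcl2.B9 and 8 in rrp4urt1dcl2het, all higher. Of all loci, 14.7%, 21.9%, 41.2% and 28.2% were higher in rrp4-2, rrp4urt1dcl2.B9, rrp4urt1dcl2het and the triple mutant. None of the 11 is listed in urt1-1, GKheso1, ski2-5 or the ski2urt1dcl2 lines, and 1 is listed in heso1-4/urt1-1.

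Of these, 7 overlap an annotated snRNA gene and may share reads with it. At 5 of the 7 pairs the authors' mean counts lie within 10% of each other. AT4G04195 (TAIR10.1 chr4:1114529-1114766, plus strand) contains on its opposite strand the U5.7 gene AT4G04185, 101 bases long. The authors' deposited table gives the locus log2 fold changes of 1.61 in rrp4-2, 2.24 in rrp4urt1dcl2.B9, 2.13 in rrp4urt1dcl2het and 2.64 in rrp4-2/urt1-1/heso1-4. For U5.7 itself the table gives 1.61, 2.24, 2.14 and 2.64, and the authors' mean counts are 352 for the locus and 351 for U5.7. AT5G04325 and U1.9 likewise have 2.22 and 2.24 in the triple mutant in the authors' deposited table. Over the 18 entries in which both a locus and its snRNA gene are listed, the median absolute difference of log2 fold change was 0.02, and the 2 had the same direction in all 18. The largest difference, 1.3, was at AT1G05663 (2.57) against U6atac2 (3.87) in rrp4-2/urt1-1/heso1-4. The sequence of AT4G04195 is shown on the strand of U5.7, with the bases of U5.7 in capitals, because it lets the snRNA and the bases before it be seen inside the noncoding locus.

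AT4G04195, chr4:1114529-1114766, minus strand: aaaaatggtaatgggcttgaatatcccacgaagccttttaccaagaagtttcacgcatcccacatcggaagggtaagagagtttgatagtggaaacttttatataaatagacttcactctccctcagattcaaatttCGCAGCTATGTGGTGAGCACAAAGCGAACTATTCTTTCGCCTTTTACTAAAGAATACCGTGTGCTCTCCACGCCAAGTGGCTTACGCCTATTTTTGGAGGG

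The other 4 loci overlap no annotated snRNA gene but hold a stretch like one, found with BLAST. AT5G07745 (TAIR10.1 chr5:20996616-20997035, plus strand) is 96.3% identical to U1.2 over 164 bases. AT1G09937 is 93.4% identical to U4.2 over 121 bases. AT5G09065 is 93.8% identical to U2.10 over 195 bases. AT5G07325 holds a stretch 97.4% identical to U4.6 over 153 bases and another 91.8% identical to U1.2 over 159 bases.

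At 3 of these 4 loci the values stand in the same order of lines, although rrp4urt1dcl2het and rrp4urt1dcl2.B9 did not differ at any of the 3 by the z test described below, with adjusted p from 0.67 to 0.894. AT5G07745 has log2 fold changes of 0.99 in rrp4-2, 1.37 in rrp4urt1dcl2het, 1.51 in rrp4urt1dcl2.B9 and 2.56 in the heso1-4 triple mutant, per the authors' deposited table, and it is the locus of the 11 listed in heso1-4/urt1-1, at 1.19. For AT5G07325 the authors' deposited table gives 1.09 in rrp4-2, 1.49 in rrp4urt1dcl2het, 1.73 in rrp4urt1dcl2.B9 and 2.21 in the triple mutant. AT1G09937 has 0.91, 1.29, 1.68 and 1.84 in the same lines of that deposited table by the authors. AT5G09065 is listed in rrp4-2/urt1-1/heso1-4, at 1.15, and in no other line of the authors' deposited table. Whether these reads come from the unannotated copies or from annotated snRNA genes of near-identical sequence was not tested, so the values are uncertain as to copy.

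Plant snRNA genes are known for an upstream sequence element with the core letters CCCACATCG, followed by a TATA box. The 9 letters, searched on both strands, lie inside 8 of the 254 loci (3.15%) and inside 10 of the 3226 other RefSeq long noncoding RNA genes (0.31%). With 200 bases added on either side the numbers are 11 of 254 (4.33%) and 14 of 3226 (0.434%). Of 82 annotated snRNA genes, 29 (35.4%) have these letters in the 100 bases before their start. The element was looked for after the values of these loci were known, and the 254 loci were listed for changing in some line, so the shares are descriptions. Of the 8 loci, 7 hold an snRNA or a match to one, and the element ends 61 to 74 bases before it. At AT5G07325 this holds for the match to U1.2, while its closer match, to U4.6, lies 417 bases after the element. In all 8 the letters TATA follow the element, by 32 to 35 bases at these 7 and by 26 at AT4G04565. The windows are shown on the strand of the element, in TAIR10.1 coordinates, with the element and the TATA letters in capitals. Their spacing can thus be compared between loci.

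AT5G07745, chr5:20996676-20996764, plus strand: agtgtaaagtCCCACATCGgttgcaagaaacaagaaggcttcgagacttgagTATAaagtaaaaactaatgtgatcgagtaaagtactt
AT5G07325, chr5:19886091-19886179, minus strand: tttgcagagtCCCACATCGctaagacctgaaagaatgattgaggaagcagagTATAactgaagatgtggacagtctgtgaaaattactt
AT1G09937, chr1:30081048-30081136, plus strand: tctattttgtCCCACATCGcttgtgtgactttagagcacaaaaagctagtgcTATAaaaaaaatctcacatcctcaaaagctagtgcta
AT5G09065, chr5:25066478-25066566, plus strand: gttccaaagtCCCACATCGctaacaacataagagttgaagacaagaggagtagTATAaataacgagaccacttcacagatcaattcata
AT5G04325, chr5:9494586-9494674, minus strand: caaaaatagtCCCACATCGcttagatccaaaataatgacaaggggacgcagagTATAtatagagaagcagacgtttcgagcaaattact
AT5G04445, chr5:9832488-9832576, plus strand: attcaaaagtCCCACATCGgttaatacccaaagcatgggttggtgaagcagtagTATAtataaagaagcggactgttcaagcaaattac
AT4G04195, chr4:1114630-1114718, minus strand: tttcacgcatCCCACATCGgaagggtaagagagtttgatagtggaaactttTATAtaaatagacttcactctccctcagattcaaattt
AT4G04565, chr4:1472652-1472740, plus strand: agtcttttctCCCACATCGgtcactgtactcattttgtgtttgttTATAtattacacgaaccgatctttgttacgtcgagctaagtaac

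The last of these, AT4G04565 (TAIR10.1 chr4:1472018-1473136, plus strand), has the element and the TATA letters but no match to an annotated snRNA, snoRNA, transfer RNA or ribosomal RNA gene. Genes of other RNA types were not searched for a match. The authors' mean count of AT4G04565 is 7831. In the authors' deposited table it has log2 fold changes of 0.76 in rrp4urt1dcl2het, 0.99 in rrp4-2, 1.24 in rrp4urt1dcl2.B9 and 1.91 in rrp4-2/urt1-1/heso1-4. Over the 8 loci with the element, 7 were higher in rrp4-2 (median 1.04), 7 in rrp4urt1dcl2.B9 (1.61), 7 in rrp4urt1dcl2het (1.37) and 8 in the triple mutant (2.18). None was listed as lower in any of the 13 lines. Of all loci, 14.7%, 21.9%, 41.2% and 28.2% were higher in these lines, in the same order. AT5G09065 is listed in the triple mutant alone and is among the 254 through that call.

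The difference between the triple mutant and rrp4-2 was tested on the log2 fold changes with a z test, two-sided, using standard errors recovered from the deposited p-values. At AT5G07745 the difference was 1.56 ± 0.37 (SE), Benjamini-Hochberg adjusted p = 0.00022 over the 1457 loci listed in both lines. AT5G07325, AT5G04325, AT4G04565, AT5G04445 and AT1G09937 also differed, by 1.12, 1.11, 0.92, 1.1 and 0.93. At AT4G04195 the difference of 1.02 ± 0.67 did not pass, adjusted p = 0.417, and at AT4G07135, which overlaps U1.12p, 1.39 ± 0.61 did not, adjusted p = 0.109.

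**Figure D2:**
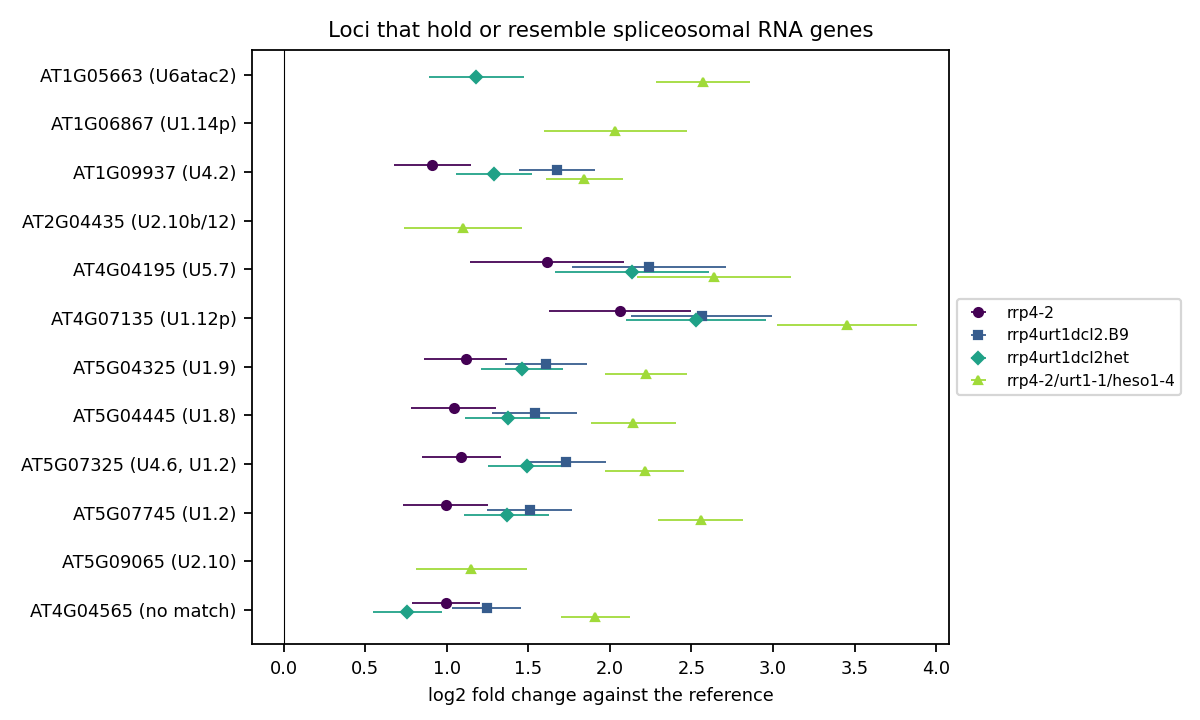
Log2 fold change against the reference with its standard error recovered from the deposited p-value (horizontal bars), for the 11 loci that overlap or match the snRNA gene named in brackets and for AT4G04565, in 4 lines with the rrp4-2 mutation. A missing symbol means that the table does not list the locus in that line. Of the 12 loci, 3 are listed in rrp4-2/urt1-1/heso1-4 alone, and at the other 9 its value is the highest.

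Loci over snoRNA genes had smaller values. SnoRNAs guide chemical changes of ribosomal RNA and are cut from longer precursors. All 6 such loci were higher in rrp4-2/urt1-1/heso1-4, with log2 fold changes of 0.53 to 1.73 in the authors' deposited table. In rrp4urt1dcl2.B9 5 of 6 were higher, in rrp4urt1dcl2het 4 and in rrp4-2 3, and none was listed as lower. Of all loci, 28.2%, 21.9%, 41.2% and 14.7% were higher in these lines, in the same order. AT5G02645 is listed in the triple mutant alone and is among the 254 through that call. The highest of the 6, AT4G03905, has 1.73 in the triple mutant. It holds the snoRNA genes AT4G03915 and AT4G03925 on its own strand, the first of which has 2.15 there in the authors' deposited table.

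Ribosomal, transfer and microRNA genes account for 5 loci. AT3G06355 (TAIR10.1 chr3:14199575-14200076) has the highest authors' mean count of the 254, 855138, and overlaps the 5.8S ribosomal RNA gene AT3G41979 by 164 bases. Its log2 fold change in the authors' deposited table is -0.71 in rrp4urt1dcl2het, where the ribosomal gene has -0.86. AT1G07017 is 91.5% identical to the plastid 23S ribosomal RNA gene over 176 bases and has -0.86 in the same line of the authors' deposited table. AT1G28715, the longest locus at 7116 bases, spans 11 transfer RNA genes of 72 bases each on its opposite strand and was higher in rrp4-2/urt1-1/heso1-4, at 0.95 in the authors' deposited table. AT5G01705 and AT5G01725 lie on opposite strands of the same 562 bases, chr5:3247096-3247657 in TAIR10.1, and each contains MIR5998a and MIR5998b. Both loci have 2.22 in rrp4urt1dcl2.B9, 1.64 in rrp4urt1dcl2het and 2.06 in the triple mutant in the authors' deposited table, with an authors' mean count of 8.83. The microRNA genes have 2.94 (MIR5998b) and 3.21 (MIR5998a) in the triple mutant in the same deposited table of the authors. The mature sequences, from RefSeq, are shown with the seed (bases 2 to 8) in capitals because both genes give the same one.

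AT5G01745, chr5:3247262-3247282, plus strand: aCAGUUUGuguuuuguuuugu
AT5G01735, chr5:3247378-3247398, minus strand: aCAGUUUGuguuuuguuuugu

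Several loci with large differences between mutant lines share another sequence. At AT5G06845 (TAIR10.1 chr5:18891003-18891437, plus strand) the authors' deposited table gives log2 fold changes of 1.49 in GKheso1, 2.01 in heso1-4/urt1-1, 2.47 in rrp4-2, 4.10 in rrp4urt1dcl2.B9, 4.40 in rrp4urt1dcl2het and 6.28 in rrp4-2/urt1-1/heso1-4. AT4G06805, on chromosome 4, has 1.19, 1.53, 1.69, 3.03, 3.35 and 4.85 in the same lines and table of the authors' deposited comparisons. AT1G09793, on chromosome 1, has 1.73, 2.35, 2.65, 3.82, 3.99 and 4.84 in the authors' deposited table and is also listed in urt1-1, at 1.05, and in urt1.2, at 0.94. The values stand in the same order of lines at these 3 loci. Of the neighbours in that order, rrp4urt1dcl2.B9 was above rrp4-2 by the z test given below, rrp4urt1dcl2het and rrp4urt1dcl2.B9 did not differ by it, and the other neighbours were not compared by a test. AT4G06810 and AT1G09797 overlap AT4G06805 and AT1G09793 on the opposite strand and have nearly the same values, 4.79 and 4.84 in the triple mutant of the authors' deposited table.

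All 3 stretches contain the letters GGTTCGA, the core of box B, the internal promoter of transfer RNA genes and of short interspersed elements, which RNA polymerase III transcribes. The 7 letters, searched on both strands, lie inside 16 of the 254 loci (6.3%) and 150 of 3226 other RefSeq long noncoding genes (4.65%), shares that lie close to each other. With 200 bases on either side the shares are 8.27% and 7.56%. The motif was looked for after the values were seen. Of the 16 loci, 11 were higher and 3 lower in rrp4-2/urt1-1/heso1-4, so its presence does not go with one direction. AT4G05605, which also holds it, was lower in 9 lines, with log2 fold changes from -5.46 to -2.66 in the authors' deposited table. AT4G06945, on chromosome 4, has an authors' mean count of 11.4 and 3.17 in rrp4urt1dcl2.B9, 3.38 in rrp4urt1dcl2het and 4.89 in the triple mutant in the authors' deposited table. The windows around the letters are shown for the 4 stretches on the strand of the motif, in TAIR10.1 coordinates, with the motif in capitals, so that the bases around the motif can be compared between loci that were higher in the triple mutant.

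AT5G06845, chr5:18890998-18891094, plus strand: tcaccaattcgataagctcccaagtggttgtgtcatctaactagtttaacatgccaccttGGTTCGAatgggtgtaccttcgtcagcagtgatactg
AT4G06805, chr4:10180257-10180353, plus strand: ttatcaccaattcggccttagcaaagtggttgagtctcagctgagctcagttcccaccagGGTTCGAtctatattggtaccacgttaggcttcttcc
AT1G09793, chr1:29427933-29428029, plus strand: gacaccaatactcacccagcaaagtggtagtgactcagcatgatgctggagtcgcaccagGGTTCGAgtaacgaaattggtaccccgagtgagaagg
AT4G06945, chr4:10905313-10905409, minus strand: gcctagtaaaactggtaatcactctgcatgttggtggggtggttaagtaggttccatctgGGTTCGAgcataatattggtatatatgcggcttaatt

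The z test separated some of the lines at these loci. Between rrp4-2/urt1-1/heso1-4 and rrp4-2, AT5G06845 differed by 3.81 ± 0.39 (SE), adjusted p = 9.57e-21, AT4G06805 by 3.17 ± 0.27, adjusted p = 4.03e-29, and AT1G09793 by 2.19 ± 0.28, adjusted p = 4.39e-13. Between rrp4urt1dcl2.B9 and rrp4-2 the same 3 loci differed by 1.63, 1.35 and 1.17, adjusted p = 0.00127, 7.7e-05 and 0.00166. The triple mutant with heso1-4 was above rrp4urt1dcl2.B9 by 2.18, 1.82 and 1.02. Between rrp4urt1dcl2het and rrp4urt1dcl2.B9 the differences of 0.30, 0.31 and 0.17 did not pass, adjusted p = 0.785, 0.667 and 0.828. Between heso1-4/urt1-1 and urt1-1, AT1G09793 differed by 1.3 ± 0.29, adjusted p = 0.000407. AT4G06945 did not pass between rrp4urt1dcl2.B9 and the triple mutant, at -1.72 ± 0.90, adjusted p = 0.401.

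**Figure D3:**
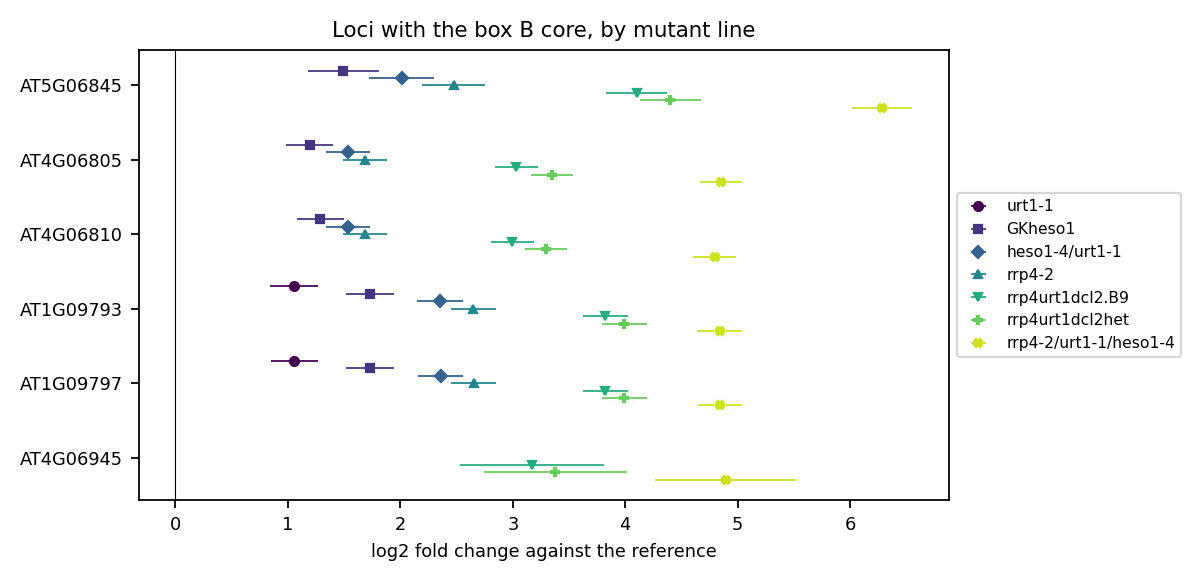
Log2 fold change against the reference with its recovered standard error (horizontal bars) at 6 loci that contain the box B core, in 7 mutant lines, with no symbol where the table does not list the locus. At AT5G06845 the lines run from 1.49 in GKheso1 to 6.28 in rrp4-2/urt1-1/heso1-4.

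Another group lies across protein-coding genes. On the opposite strand of such a gene lie 28 of the 254 loci, of which 12 have an authors' mean count under 10. In the authors' deposited table, 12 of the 28 were higher and none lower in rrp4-2, and 13 were higher and 1 lower in rrp4urt1dcl2.B9. In rrp4urt1dcl2het 14 were higher and 3 lower, and in the triple mutant 21 were higher and 1 lower. Of all loci, 14.7%, 21.9%, 41.2% and 28.2% were higher in these lines, in the same order. Some of the 28, such as AT1G09773, are listed in 1 line alone and are among the 254 through that call. The highest of the 28, AT4G05285 (TAIR10.1 chr4:4824699-4825139, plus strand), lies wholly inside AT4G07990, which encodes a chaperone protein with a DnaJ domain. It has the highest log2 fold change of the 254 loci in each rrp4 line of the authors' deposited table, 7.34 in rrp4-2, 8.03 in rrp4urt1dcl2.B9, 8.10 in rrp4urt1dcl2het and 8.39 in the triple mutant. It is listed in no single mutant with RRP4 intact, and the authors' deposited table has 4.13 and 4.32 in ski2urt1dcl2.107 and ski2urt1dcl2.123. AT4G07990 has 3.06, 3.85, 3.86 and 4.10 in the 4 rrp4 lines of the authors' deposited table. AT4G05285 has no CCCACATCG inside, but the letters lie within 200 bases of it, as they do at AT2G04435, which overlaps U2.10b/12, and at AT2G09250, which lies across the response regulator gene RR3 and was lower in rrp4urt1dcl2het, at -0.76.

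Most of these loci had larger log2 fold changes than the gene they lie across. In rrp4-2 the locus was above its gene at 6 of the 7 pairs listed for both, with a median difference of log2 fold change of 2.30. The locus was above at 8 of 9 pairs in rrp4urt1dcl2.B9, at 9 of 10 in rrp4urt1dcl2het and at 10 of 12 in the triple mutant, with median differences of 2.58, 1.91 and 1.87. AT1G08663 has 4.41 in rrp4-2 against 2.1 for AT1G64253, a gene for a DEK-domain protein, in the authors' deposited table. AT1G05283 has 3.73 against 1.14 for SPS2, which encodes a solanesyl diphosphate synthase, in the same line of the authors' deposited table. AT1G09323, across PSD, the gene for a transfer RNA exporter, has 3.77 against 1.00 in the triple mutant of the authors' deposited table. An exception is AT3G07555, which has 1.2 against 1.61 for AT3G46845 in the triple mutant of that deposited table of the authors. Only pairs listed for both could be compared, a locus of low count is listed only where its change is large, and the part of this in the difference was not tested. The authors' settings for strand are not given in the sources used here, so reads of a locus and of its opposite-strand gene cannot be told apart. AT5G01705 and AT5G01725, on opposite strands of the same 562 bases, have the same mean count, 8.83, and the same log2 fold changes. The values of an opposite-strand locus are therefore no measure of antisense RNA. They may be those of a stretch of the gene it lies across.

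**Figure D4:**
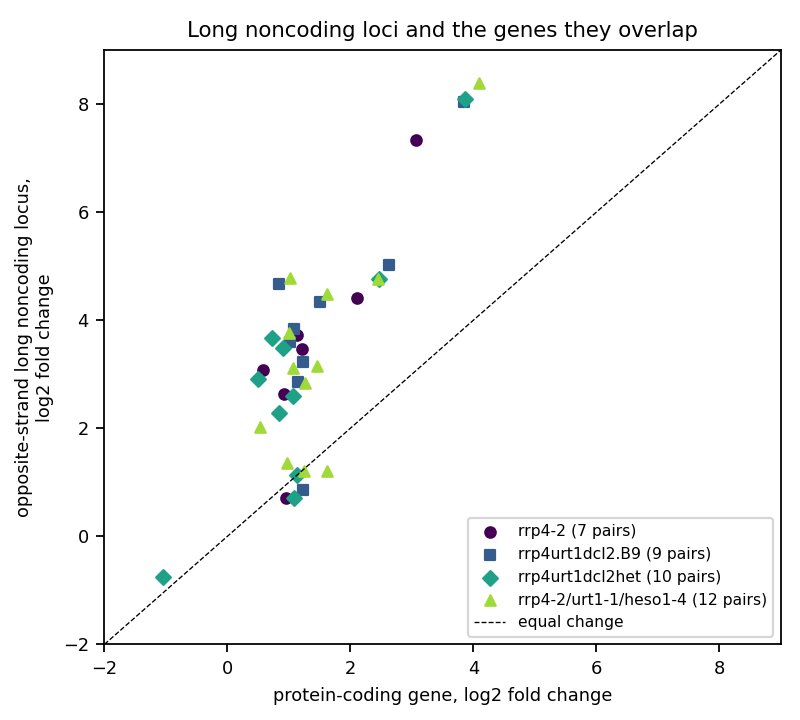
Log2 fold change of opposite-strand long noncoding loci (vertical) against that of the protein-coding gene they overlap (horizontal), for pairs in which the table lists both, in 4 lines with the rrp4-2 mutation, with equal change as a dashed line. Most points lie above the line, by a median of 2.30 in rrp4-2, and the highest point of each line is AT4G05285.

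Long noncoding loci also overlap each other. Among the 254 there are 29 overlapping pairs, all on opposite strands, and in the 80 entries that list both loci of a pair the direction was the same in all 80, with a median absolute difference in log2 fold change of 0.05. At 11 of the 29 pairs the authors' mean counts lie within 10% of each other. Such pairs may share reads, so their agreement is no independent observation, and a count of loci counts them double. In the triple mutant AT4G06795 and AT4G06800, which overlap each other and lie beside AT4G06805, had 1.99 and 0.59 in the authors' deposited table. In all, 38 runs of 2 to 4 loci start within 20 kb of each other.

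A few loci are listed in nearly every line with 1 direction. AT3G05945 was lower in 12 of 13 lines, AT1G07457 and its overlapping partner AT1G07463 were higher in 11, and AT3G03945 was lower in 10. AT1G07457 (TAIR10.1 chr1:17695289-17696075, plus strand) lies between 3.35 in GKheso1 and 4.24 in the triple mutant in the authors' deposited table. AT3G03945 lies between -6.09 in rrp4urt1dcl2het and -4.14 in GKheso1 in the authors' deposited table, with an authors' mean count of 28.6. AT3G08935 was higher in 9 lines, from 4.36 in urt1-1 to 5.94 in rrp4-2, and AT5G03405 in 9, from 2.84 to 4.58, in the authors' deposited table. All lines share the reference libraries, so a reference level that stands apart would appear in every line at once, and these entries are not independent of each other. The means of the 7 loci listed in 9 or more lines lie between 11.7 and 66.3. Among them, AT3G05945 was lower in ski2-5, at -2.28, than in rrp4-2, at -1.05, a difference of -1.24 ± 0.43, adjusted p = 0.0244 over 128 loci.

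**Figure D5:**
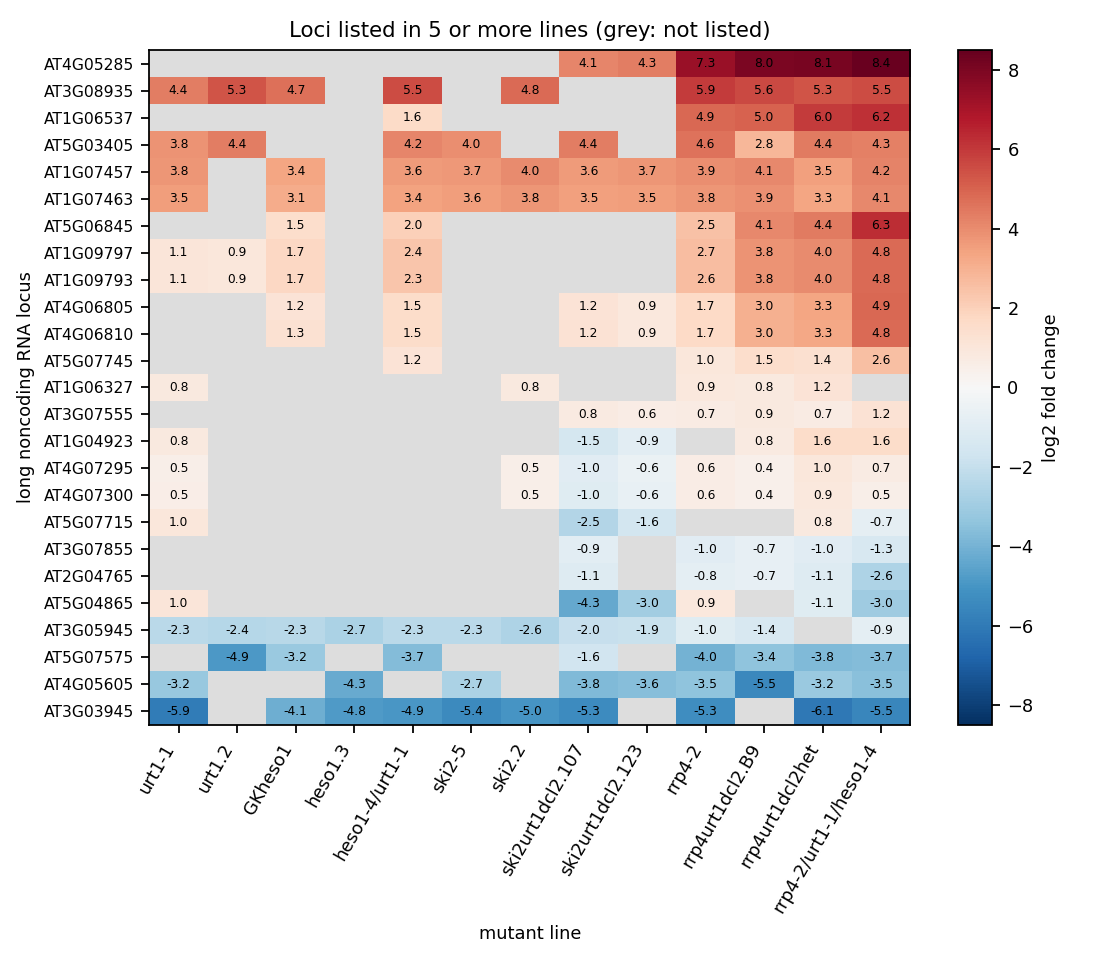
Log2 fold change in each of 13 mutant lines (columns) at the 25 loci listed in 5 or more lines (rows, ordered by their mean over the lines that list them), with red for higher, blue for lower and grey for not listed. AT1G07457 lies between 3.35 and 4.24 and AT3G03945 between -6.09 and -4.14 in the lines that list them, while AT5G06845 runs from 1.49 to 6.28.

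How many of the lower loci lay where no other gene is annotated varied by line. The class without overlap holds 119 of the 254 loci (46.9%). It holds 46 of the 66 loci lower in the triple mutant, 28 of 38 in ski2urt1dcl2.107, 20 of 27 in ski2urt1dcl2.123 and 8 of 8 in rrp4-2, but 21 of 35 in rrp4urt1dcl2het and 8 of 16 in rrp4urt1dcl2.B9. The median authors' mean count was 150.0 for the loci lower and 20.5 for those higher in the triple mutant. For lower and higher loci it was 82.5 and 20.9 in rrp4urt1dcl2.B9, 57.4 and 31.5 in rrp4urt1dcl2het and 186 and 102 in ski2urt1dcl2.107. In rrp4-2, with 8 lower loci, the order was the opposite, at 30.6 for lower and 49.3 for higher loci. Pseudogenes, under which RefSeq files many transposon genes, made up a median of 8.35% of the genes within 100 kb of the loci lower in the triple mutant and 3.1% around the higher ones. In the same order, the medians were 19.7% and 4.86% in rrp4-2, 10.5% and 3.54% in rrp4urt1dcl2.B9 and 6.41% and 6.16% in rrp4urt1dcl2het. In ski2urt1dcl2.107 the lower loci had the smaller median, 7.88% against 9.23% for the higher loci. The median around all 254 was 6.45%. Of the loci typed as transposable elements in the table, 43.4% were lower in the triple mutant.

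Several loci changed direction between lines. AT5G04865 (TAIR10.1 chr5:10860774-10861155, plus strand) was higher in urt1-1, at 1.00, and in rrp4-2, at 0.93, and lower in rrp4urt1dcl2het, at -1.05, in rrp4-2/urt1-1/heso1-4, at -3.00, and in ski2urt1dcl2.107 and ski2urt1dcl2.123, at -4.32 and -2.96, in the authors' deposited table. Its triple mutant value lay below that of rrp4-2, with a difference of -3.92 ± 0.47 and a z test adjusted p of 2.1e-15. The overlapping pair AT5G04515 and AT5G04525 went from 0.52 in rrp4-2 to -1.22 and -1.20 in the triple mutant in the authors' deposited table. AT2G04765 was lower in both lines, at -0.81 and -2.63, and these loci were the 4 of 16 differing loci that lay below rrp4-2. AT4G07295, whose overlapping partner AT4G07300 is listed in the same lines with the same directions, was higher in urt1-1, ski2.2 and all 4 rrp4 lines, between 0.43 and 0.96, and lower in ski2urt1dcl2.107 and ski2urt1dcl2.123, at -0.99 and -0.60, in the authors' deposited table. AT5G07715 was higher in urt1-1, at 0.96, and in rrp4urt1dcl2het, at 0.84, in the authors' deposited table. It was lower there in the triple mutant, at -0.74, in ski2urt1dcl2.107, at -2.46, and in ski2urt1dcl2.123, at -1.58.

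AT5G04435 (TAIR10.1 chr5:9818925-9819175, minus strand) had -6.44 in ski2-5, -6.76 in heso1.3, -7.76 in ski2urt1dcl2.107 and -6.67 in ski2urt1dcl2.123 and is not listed in the other 9 lines of the authors' deposited table. AT5G07575 was lower in 8 lines, from -1.60 in ski2urt1dcl2.107 to -4.91 in urt1.2, and AT3G07775 in 3, at -2.42 in urt1.2, -4.36 in GKheso1 and -5.09 in rrp4urt1dcl2.B9, in the authors' deposited table. AT3G09015, with an authors' mean count of 7.47, is listed in ski2-5 alone, at 5.74, with a recovered standard error of 1.61. After the ribosomal locus, the highest authors' mean counts, which are not per length, are those of AT4G05995 (11441), AT3G08370 (8746), AT3G01845 (8267) and AT1G07017 (7997). AT4G05995, AT3G08370 and AT3G01845 were all lower in ski2urt1dcl2.107, at -1.07, -0.87 and -1.80, and in ski2urt1dcl2.123, at -0.73, -0.61 and -1.48, in the authors' deposited table.

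AT1G06537 (TAIR10.1 chr1:11672237-11672483, minus strand), which overlaps no other gene, is the second highest locus in rrp4urt1dcl2het. The authors' deposited table gives it 1.62 in heso1-4/urt1-1, 4.91 in rrp4-2, 5.04 in rrp4urt1dcl2.B9, 5.97 in rrp4urt1dcl2het and 6.22 in the triple mutant. The triple mutant and rrp4-2 differed there by 1.31 ± 0.48, adjusted p = 0.0371.

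Over all long noncoding loci listed in both lines of a pair, the z test gave few differences. Between rrp4-2/urt1-1/heso1-4 and rrp4-2, 16 of 58 loci differed, 12 above and 4 below, against 18.9% of all loci listed in both. The 12 comprise 5 loci with the box B core, 6 with the CCCACATCG element and AT1G06537. The 5 include the overlapping pairs AT4G06805 with AT4G06810 and AT1G09793 with AT1G09797. Each pair has nearly the same values and shares a copy of the core, and overlapping loci are counted separately in all these counts. Between rrp4urt1dcl2.B9 and rrp4-2, 5 of 59 differed against 3.1% of all loci. They are the same 5 loci with the box B core, so they lie in fewer separate stretches than the count gives. Between rrp4urt1dcl2het and rrp4urt1dcl2.B9, 2 of 72 differed against 6.54%, the overlapping loci AT2G05485 and AT2G05465, by 0.84 and 0.82. Between rrp4urt1dcl2.B9 and rrp4-2/urt1-1/heso1-4, 10 of 70 differed against 9.64%, 2 above and 8 below. Between heso1-4/urt1-1 and urt1-1, 2 of 8 differed against 3.15%, the overlapping loci AT1G09793 and AT1G09797. Between ski2-5 and rrp4-2, 1 of 7 differed against 23.4%. Between ski2.2 and ski2-5, 0 of 5 loci differed by the z test against 0% of all 84 loci, and 0 of 5 had an unadjusted p under 0.05. Between urt1.2 and urt1-1 the z test likewise found 0 of 5 against 0% of 81, with 0 at an unadjusted p under 0.05. A locus enters this test only where it passed in both lines, so loci absent from one line are not compared.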

How the data were processed

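The deposited table holds the authors' comparisons of mutant lines, and per the submitters' processing notes reads were trimmed with cutadapt 2.4, aligned with STAR 2.6.0a to TAIR10, counted with featureCounts of Subread 1.6.3 and compared with DESeq2. Its values are the authors' mean normalised count per locus, a signal over all libraries, the log2 fold change of a line, and p-values and adjusted p-values deposited by the authors. Depth per library is not given, so no interval on counts was made. Replicates within a group are separate libraries, and whether they came from separate plants is not given, so the p-values measure the spread between those libraries.

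From the table, loci were counted at the deposited adjusted p-value under 0.05 and set beside all 14888 loci. Standard errors were recovered from each log2 fold change and the normal quantile that its p-value gives. Pairs of lines were compared with a two-sided z test, adjusted by Benjamini-Hochberg over all loci listed in both, and the z test was tested on simulated data. Overlaps, motifs and sequences came from RefSeq TAIR10.1, whose nuclear coordinates are used. Matches were found with blastn 2.17.0 at an expectation of at most 1e-10 against annotated snRNA genes of up to 300 bases and snoRNA, tRNA and rRNA genes. Python 3.11.15, pandas 2.3.3 and scipy 1.17.1 were used.

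The loci, lists and motifs were chosen with earlier results of these data known. The named loci are those listed in 9 or more lines, the 3 highest and 3 lowest in each of 8 main lines, the 5 highest mean counts, up to 5 per pair that differed in the z test, those over microRNA genes and runs of neighbours. Loci named for snRNA or snoRNA overlap or match, for a motif or for their opposite-strand gene, AT5G07715 and further loci of the z test were chosen after their values were seen.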

Additional observations from a re-analysis of the deposited data

Results flagged for a closer look

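Differences between mutant lines under the same comparison with the reference, by the z test, mark 6 of the 8 pairs of lines. In the numbers that follow, overlapping loci are counted separately. The triple mutant rrp4-2/urt1-1/heso1-4 differed from rrp4-2 at 16 of 58 long noncoding loci, against 18.9% of all loci listed in both lines. From rrp4urt1dcl2.B9 it differed at 10 of 70, against 9.64%. The line rrp4urt1dcl2.B9 differed from rrp4-2 at 5 of 59, against 3.1%, and from rrp4urt1dcl2het at 2 of 72, against 6.54%. The double mutant heso1-4/urt1-1 differed from urt1-1 at 2 of 8, against 3.15%, the overlapping loci AT1G09793 and AT1G09797. Between ski2-5 and rrp4-2, 1 of 7 differed, AT3G05945, against 23.4%. The shares for rrp4urt1dcl2het and for ski2-5 lie below those of all loci.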

How the results depend on the processing

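The counts rest on the deposited tests, and no other normalisation, leaving out of a replicate or library could be run without values per library. No paired analysis was possible because the table gives comparisons and no library values. Counting overlapping loci once, a choice made after seeing the data, kept all 16 counts per line within 1.5 times. With only the 122 loci that overlap no other annotated gene, the higher loci came to 6 in urt1-1, 3 in GKheso1, 7 in heso1-4/urt1-1, 5 in ski2-5, 27 in rrp4-2, 20 in rrp4urt1dcl2.B9, 44 in rrp4urt1dcl2het and 26 in rrp4-2/urt1-1/heso1-4, and the lower loci to 5 in GKheso1, 3 in heso1-4/urt1-1, 8 in rrp4urt1dcl2.B9 and 22 in rrp4urt1dcl2het. As shares of the 122, the higher loci lie below those of all loci in rrp4urt1dcl2.B9 (16.4% against 21.9%), rrp4urt1dcl2het (36.1% against 41.2%) and the triple mutant (21.3% against 28.2%), where the shares of all 254 lie above them; the cause was not tested. At an adjusted p under 0.01 the higher loci came to 8 in urt1-1 and 5 in ski2-5, and the lower to 3 in heso1-4/urt1-1, 8 in rrp4urt1dcl2.B9, 21 in rrp4urt1dcl2het and 43 in rrp4-2/urt1-1/heso1-4. With an absolute log2 fold change of 1 or more, 7 loci were higher in urt1-1, and 3, 5, 8, 16 and 41 were lower in heso1-4/urt1-1, rrp4-2, rrp4urt1dcl2.B9, rrp4urt1dcl2het and rrp4-2/urt1-1/heso1-4. With a mean count of 10 or more, 47 were higher in rrp4urt1dcl2.B9. Fewer loci meet these limits on p, fold change and count by construction. In the z test, a correlation of 0.5 between the estimates of lines that share a reference gave 7 loci between rrp4urt1dcl2het and rrp4urt1dcl2.B9, and an adjusted p under 0.01 left 0 there and 0 between ski2-5 and rrp4-2, with 6 and 1 at an unadjusted p under 0.05. The other counts moved by at most 1.5 times.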
